A study of Danio rerio with 50 samples.

Results

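The genes described here encode the subunits of the mitochondrial oxidative phosphorylation complexes, measured in the livers of adult male zebrafish (Danio rerio) that were exposed to estradiol, the main vertebrate estrogen, or left untreated. The rule for members used symbols only, but it was set with earlier results of these data known. Older names were brought to their current symbols, and every gene whose symbol begins with nduf, uqcr, cox4, cox5, cox6, cox7, cox8 or atp5, or is cyc1 or one of the sdh genes from sdha to sdhd, was kept. This gave 82 genes among the 9163 named genes tested, read by 93 probes, with 10 genes read by more than 1 probe. By complex, 33 belonged to complex I, 5 to complex II, 8 to complex III, 16 to complex IV and 12 to complex V, while 8 assembly factors or regulators shared the symbol prefixes. All 82 genes passed the filter on missing values, and the probe used for each was above the local background on at least 18 of the 35 arrays from treated fish.

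Oxidative phosphorylation takes place in the inner mitochondrial membrane. Complexes I and II pass electrons from NADH and succinate to ubiquinone, complex III hands them to cytochrome c, and complex IV, cytochrome c oxidase, passes them to oxygen, while complexes I, III and IV pump protons. Complex V, the ATP synthase, lets the protons flow back and makes ATP. In mammalian liver that ATP pays for gluconeogenesis, urea synthesis and the secretion of plasma proteins. The nuclear genes described here work beside a few core subunits encoded in mitochondrial DNA, and zebrafish carry several of them as pairs of gene copies.

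Each array held the liver RNA of 1 fish sample, labelled with Cy5, beside a Cy3-labelled pool made from equal shares of male and female wild-type liver RNA, with the same dye orientation on all 50 arrays. Untreated males were sampled at 24 h (8 arrays) and at 96 h (7 arrays). At 24 h there were 6 arrays of males in water with 0.5 µg/L estradiol, 6 with 5 µg/L and 6 with 50 µg/L, and at 96 h there were 6, 4 and 7 arrays at those doses. Replicates were called biological, but no label says whether fish shared a tank, so the p-values below measure the spread between these samples.

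The values are log2 ratios of a fish sample over the reference pool, each array centred on its median, so that 0 is the median probe of the array. A difference is the mean of the treated group minus the mean of its untreated group at the same time, on the log2 scale, given with the standard error (SE) of the fit. A gene was said to have risen or fallen when limma, fitted to all 22046 tested probes, gave a Benjamini-Hochberg adjusted p under 0.05. Counts at an unadjusted p under 0.05 are given for the members only. No share of named genes at that cut-off is set beside them. Where nothing changes, chance alone gives about 1 in 20 over both directions together. At 50 µg/L more named genes than that rose even with adjustment, 9.56% at 24 h and 13.3% at 96 h. The unadjusted counts therefore do not show that the members differ from other named genes. The 3 doses of a time share their untreated fish, so their results are not independent of each other.

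Across the series, an array's correlation with the average of its group mates ran between 0.592 and 0.950, with the lowest value in 0.5 µg/L replicate 2 at 24 h. Between 25.7% and 96.3% of Cy5 spots were above background on the treated arrays. On 5 arrays, replicates 3, 4 and 5 of 50 µg/L at 24 h and replicates 3 and 4 of 50 µg/L at 96 h, the share was under 60%. The scanner files of the untreated fish were not analysed here, so their signal over background is unknown. The 9 hepatocyte markers tested were above background in the treated livers, but 7 of 9 fell at 50 µg/L at each time, with a median difference of -1.44 at 24 h and -1.81 at 96 h. Their array means lay between 0.54 and 1.77 in 50 µg/L livers at 96 h, against 2.45 to 3.23 in untreated livers. Of 11 exocrine pancreas markers, 3 rose at 50 µg/L at 96 h, with array means between -0.73 and -0.11, against -3.04 to 0.02 in untreated livers. Between the untreated groups, 96 h against 24 h, 6 of these 11 fell, beside 101 of the 9163 named genes. Of 15 muscle markers 1 rose, with array means of -3.01 to -2.13 in 50 µg/L livers at 96 h, against -3.24 to -2.52 in untreated livers. Of 8 testis markers 2 rose at each time, with array means of -0.44 to 0.48 at 96 h, against -1.13 to -0.39 in untreated livers. Of 6 bile duct markers 3 fell at 24 h and 1 at 96 h, and none of 9 erythrocyte or 8 immune cell markers passed the test. Among all named genes at 50 µg/L, 9.56% rose and 6.19% fell at 24 h, and 13.3% rose and 8.17% fell at 96 h. These are bulk samples, in which fewer cells of a type and less RNA per cell cannot be told apart, and the part of these marker levels in the results below was not tested.

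At 50 µg/L for 96 h, 20 of the 82 oxidative phosphorylation genes rose and 2 fell, each counted by its brightest probe. Of the rises 1, atp5f1b, was called on a saturated probe. Of the falls 1, cox5ba, was called as a rise on its dimmer probe. The dimmer probe of uqcrc1, which is not counted, fell. Among all named genes 13.3% rose and 8.17% fell in that comparison, so the shares of the members, 24.39% and 2.44%, stood above and below these. The median difference over the 82 genes was 0.24, beside 0.09 over all named genes, and 66 of the 82 lay above 0, beside 5498 of the 9163 named genes. Over the 6 comparisons of a dose with its controls, 25 genes rose at least once, 6 fell at least once, cox6b2 did both, and 52 did neither. The matching totals over all named genes are not given here, so these totals have no share to be set beside.

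**Figure D1:**
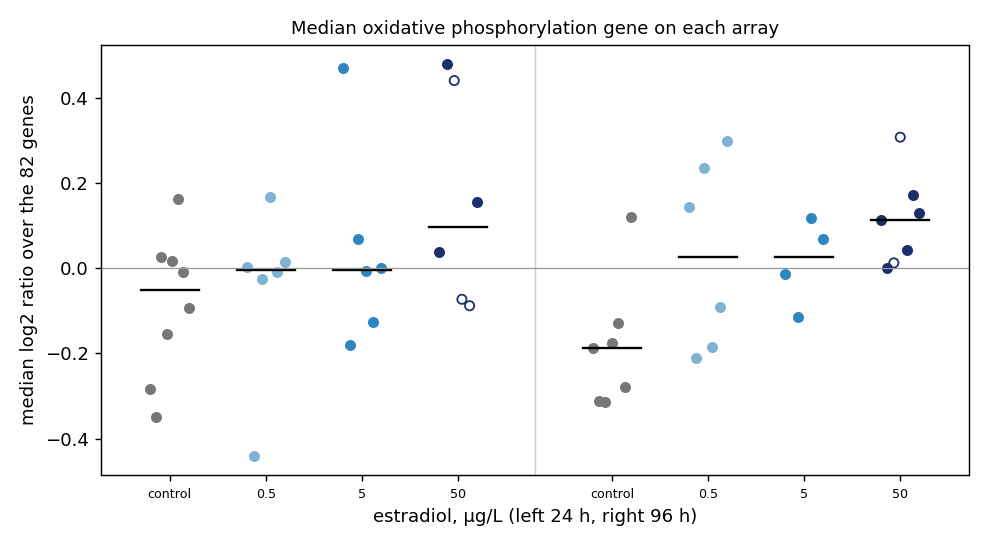
Median log2 ratio over the 82 oxidative phosphorylation genes on each array (vertical axis) by estradiol dose in µg/L, with 24 h on the left and 96 h on the right; each point is 1 array, open points are the 5 arrays of low signal and bars are group medians. The 7 arrays of 50 µg/L at 96 h lie between 0.0016 and 0.31, and 6 of the 7 untreated arrays of 96 h lie below them, with replicate 7 at 0.12.

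At 96 h the median over the 82 genes had a lowest, median and highest array value of -0.31, -0.19 and 0.12 in untreated livers, -0.21, 0.03 and 0.30 at 0.5 µg/L, -0.11, 0.03 and 0.12 at 5 µg/L, and 0.0016, 0.11 and 0.31 at 50 µg/L. At 24 h these values were -0.35, -0.05 and 0.16 in untreated livers, -0.44, -0.0030 and 0.17 at 0.5 µg/L, -0.18, -0.0034 and 0.47 at 5 µg/L, and -0.09, 0.10 and 0.48 at 50 µg/L. Treated and untreated arrays overlapped at every dose and time, at 50 µg/L and 96 h only through untreated replicate 7, as the plot of array medians shows.

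Few of the genes passed the test at 24 h. At 0.5 µg/L no member rose, beside 0.0982% of named genes, and no member fell, beside 0.349%, by limma with adjustment, while 1 lay higher and 1 lower at an unadjusted p under 0.05. The 5 µg/L dose gave no rise, beside 4.23% of named genes (8 members at an unadjusted p under 0.05), and 2 falls, cox6b2 and cox5ba, beside 3.45%. At 50 µg/L 9 members rose, 10.98% of the 82 beside 9.56% of named genes, and no member fell, with or without adjustment, beside 6.19%. These counts take the brighter probe of uqcrc1, while its dimmer probe fell at 5 and 50 µg/L, as given below. With adjustment, the share that rose was close to that of all named genes. At an unadjusted limma p under 0.05, 28 members lay higher at 50 µg/L and 0 lower, with no share of named genes to set beside them. Of the 82 members 64 lay above 0 at that dose, beside 4954 of the 9163 named genes. With array weights 22 members rose, and with the untreated fish of both times pooled 24 rose. The shares of named genes under those settings are not given here, so these counts cannot be set against them. The median difference over the members was 0.06, 0.13 and 0.20 from the lowest to the highest dose, beside -0.0036, 0.02 and 0.03 over named genes.

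The gene that rose most at 24 h was cox6a1, a nuclear-encoded complex IV subunit that in mammals is the form of most tissues. Its log2 ratio had a lowest, median and highest value of -0.03, 0.25 and 0.88 in 50 µg/L livers, against -1.31, -0.47 and 0.13 in untreated livers. All but 1 of the 6 treated arrays lay above the highest untreated array. The difference was 0.83 ± 0.19 (SE, limma adjusted p = 0.0013), a 1.77-fold rise. For 5 µg/L it was 0.56 ± 0.19 (limma adjusted p = 0.0681) and at 0.5 µg/L 0.15 ± 0.19 (limma adjusted p = 0.838), so neither lower dose passed the test.

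The other complex IV gene that rose at 24 h was cox7a2a, a copy of the COX7A2 subunit that in mammals is the liver form. It measured 0.80, 1.05 and 1.49 (lowest, median, highest) in 50 µg/L livers, against -0.10, 0.52 and 0.76 in untreated livers, with no overlap between the groups. The difference was 0.67 ± 0.18 (limma adjusted p = 0.00661). In complex V, 2 of the 3 genes for the membrane ring of c subunits, through which protons pass, rose, beside 9.56% of named genes. atp5mc1 rose by 0.73 ± 0.25 (limma adjusted p = 0.0466) and atp5mc3a by 0.67 ± 0.22 (limma adjusted p = 0.0398). The third, atp5mc3b, differed by 0.09 ± 0.29 (limma adjusted p = 0.900). Set directly against atp5mc3b, neither copy passed the test of unequal change (exact permutation tests, adjusted p = 0.279 and 0.313). With single arrays left out, atp5mc1 lost its call in 9 of 14 fits and atp5mc3a in 7. For atp5mc1 the array values were -0.26, 0.06 and 0.86 at 50 µg/L, against -1.44, -0.50 and 0.03 in untreated livers. The 2 groups overlapped.

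In complex I both copies of the mitochondrial acyl carrier protein rose at 24 h, a subunit that also carries growing acyl chains in mitochondrial fatty acid synthesis. ndufab1b measured -0.25, 0.08 and 0.27 in 50 µg/L livers, against -1.21, -0.63 and -0.06 in untreated livers. On 4 of 6 treated arrays it exceeded the highest untreated array, and the difference was 0.70 ± 0.17 (limma adjusted p = 0.00239). ndufab1a rose by 0.53 ± 0.17 (limma adjusted p = 0.0315), and ndufb6, an accessory subunit of the membrane arm, by 0.62 ± 0.19 (limma adjusted p = 0.0224). In complex III uqcrh, the acidic hinge protein near the cytochrome c docking site, rose by 0.56 ± 0.18 (limma adjusted p = 0.0278). No complex II gene passed the test, although all 5 lay above 0 with a median difference of 0.34.

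Among the assembly factors ndufaf1, which in mammals helps to build the membrane arm of complex I, measured 0.02, 0.23 and 0.60 in 50 µg/L livers at 24 h, against -0.66, -0.26 and -0.14 in untreated livers. The groups did not overlap, and the difference was 0.57 ± 0.17 (limma adjusted p = 0.0148). Of the 9 rises at 24 h, 4 did not pass without the 3 arrays of low signal in that group: ndufb6, ndufab1a, cox7a2a and atp5mc1. Their differences then were 0.67, 0.49, 0.55 and 0.81, in a fit with fewer arrays. The count was 4 without 50 µg/L replicate 2 or without replicate 3, and 5 without untreated replicate 1 or without replicate 2.

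The falls at 5 µg/L and 24 h were in complex IV. cox6b2, a copy of a subunit on the intermembrane side whose mammalian counterpart is expressed in testis, measured -0.92, -0.69 and -0.55 in 5 µg/L livers, against -0.56, -0.26 and 0.01 in untreated livers. On 5 of 6 treated arrays it was below the lowest untreated array, and it fell by 0.47 on the log2 scale (SE 0.15, limma adjusted p = 0.0464). cox5ba, a copy of the zinc-binding subunit COX5B, differed by -0.60 ± 0.18 on its brighter probe (limma adjusted p = 0.0302) and by 0.0074 on its dimmer one. When single arrays were left out in turn, cox6b2 lost its call in 11 of 14 fits and cox5ba in 8 of 14. No member was called without untreated replicate 6, or without treated replicate 1 or 4.

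**Figure D2:**
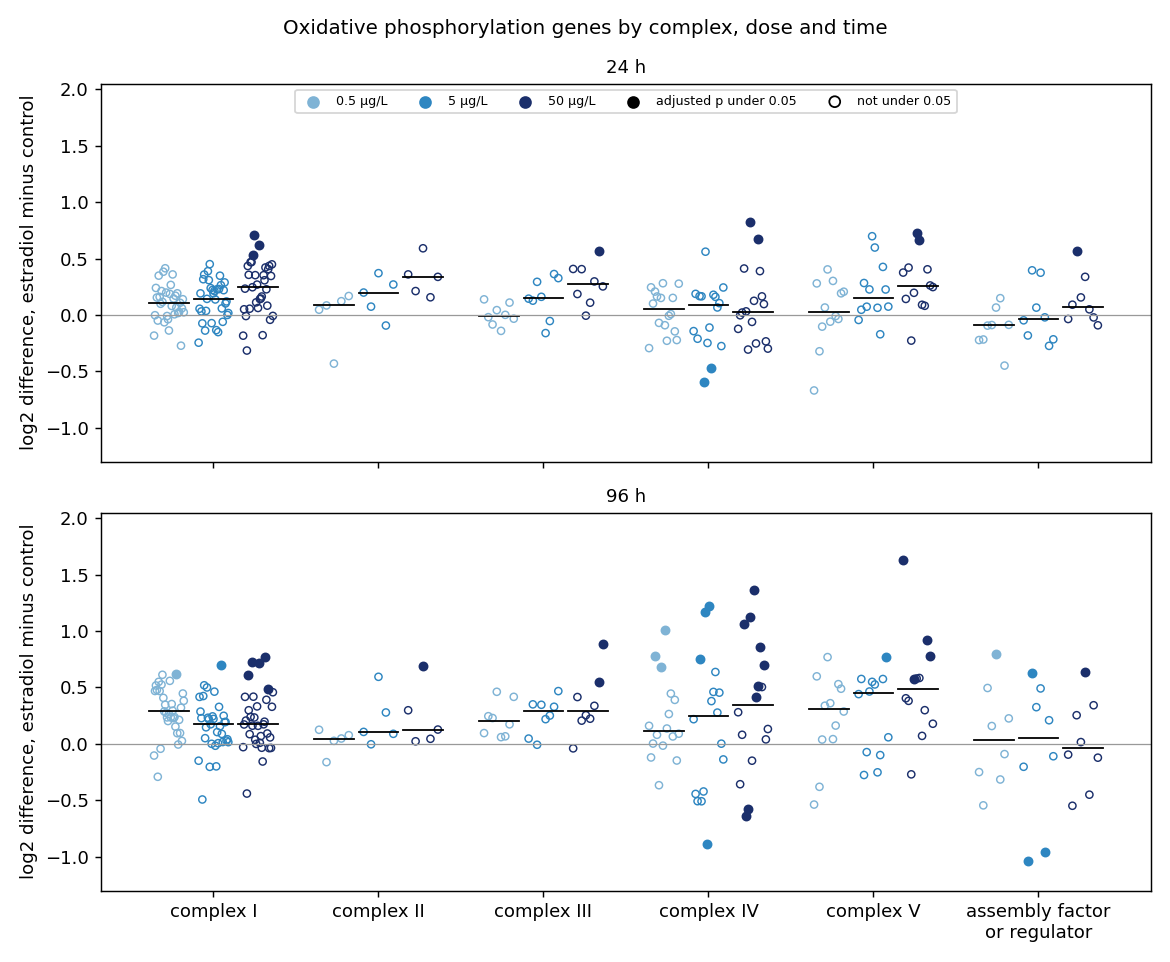
Log2 difference of estradiol minus control (vertical axis) for each of the 82 genes, grouped by complex, with 24 h in the upper panel and 96 h in the lower; colours are the doses, the uppermost complex V point of 96 h is atp5f1b on its saturated probe, filled points have an adjusted p under 0.05 and black bars are medians. At 50 µg/L and 96 h the median is highest in complex V (0.49) and complex IV (0.35), and complex IV holds 7 rises and the 2 falls. Of those falls, cox5ba was called as a rise on its dimmer probe.

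At 96 h members passed the test at every dose. At 0.5 µg/L 5 members rose, 6.1% of the 82 beside 2.65% of named genes, and no member fell, beside 1.12%. At an unadjusted limma p under 0.05, 21 members lay higher at that dose and 2 lower. The 5 µg/L dose gave 6 rises, 7.32% beside 9.81% of named genes, and 3 falls, beside 5.51%. The dimmer uqcrc1 probe, which also fell, is not counted there. Without adjustment 18 members lay higher and 8 lower at 5 µg/L, and 29 higher and 5 lower at 50 µg/L. The unadjusted counts have no share of named genes beside them. The median difference over the members was 0.23, 0.21 and 0.24 from the lowest to the highest dose, beside 0.02, 0.03 and 0.09 over named genes. The median over all members therefore did not climb with dose at 96 h, whereas the number of genes past the threshold was highest at 50 µg/L. By complex it was 0.05, 0.11 and 0.13 in complex II, and 0.20, 0.29 and 0.30 in complex III. Complex IV had 0.11, 0.25 and 0.35, and complex V 0.31, 0.45 and 0.49. Complex I went from 0.29 to 0.17 and 0.17, and the assembly factors and regulators had 0.03, 0.05 and -0.04. These trends were not tested.

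By complex, at 50 µg/L and 96 h, 5 of 33 complex I genes rose, 1 of 5 in complex II, 2 of 8 in complex III, 7 of 16 in complex IV, 4 of 12 in complex V and 1 of 8 assembly factors or regulators, beside 13.3% of all named genes. The shares were 15.2% in complex I and 12.5% of the assembly factors and regulators, near that of all named genes, and 43.8% in complex IV and 33.3% in complex V. The complex V share includes atp5f1b, called on its saturated probe. The medians in that order were 0.17, 0.13, 0.30, 0.35, 0.49 and -0.04. At 24 h the same dose gave medians of 0.25, 0.34, 0.28, 0.03, 0.25 and 0.07. Complex IV thus had the lowest median of the 6 classes at 24 h and the second highest at 96 h, although no complex IV gene differed between the times at 50 µg/L in the test of the difference itself. The plot by complex shows each gene.

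The 3 largest rises at 50 µg/L and 96 h among the 82 genes as counted, leaving out atp5f1b on its saturated probe, were in complex IV. cox6b1, a subunit that in mammals bridges the 2 monomers of the enzyme on its intermembrane face, had at 96 h a lowest, median and highest log2 ratio of -0.70, 0.52 and 0.99 in untreated livers and of 1.02, 1.46 and 1.74 at 0.5 µg/L. It was 1.05, 1.65, 2.46 and 1.54 on the 4 arrays at 5 µg/L, and 1.34, 2.03 and 2.21 at 50 µg/L. Every treated array of 96 h was above every untreated one. The differences were 1.01 ± 0.24, 1.22 ± 0.28 and 1.36 ± 0.23, with limma adjusted p of 0.0101, 0.00119 and 1.47e-05.

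The untreated fish of 96 h were themselves lower for cox6b1 than those of 24 h. At 24 h the gene measured 0.92, 1.49 and 1.72 in 50 µg/L livers, against 0.47, 1.32 and 1.77 in untreated livers, and the difference was 0.13 ± 0.24 (limma adjusted p = 0.821). Between the untreated groups the difference of 96 h minus 24 h was -0.80 ± 0.23 (limma adjusted p = 0.0661). With the untreated fish of both times as 1 group, the 96 h difference was 0.58 at 0.5 µg/L (limma adjusted p = 0.190) and 0.94 at 50 µg/L. The rise at 0.5 µg/L thus depends on which untreated fish it is set against.

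cox5ab, a copy of the COX5A subunit on the matrix face, which in mammals binds a thyroid hormone metabolite, showed the same separation at 96 h. Its values were -0.44, 0.34 and 0.54 in untreated livers, 0.56, 0.83 and 1.45 at 0.5 µg/L, 0.57, 0.80, 1.26 and 1.05 on the 4 arrays at 5 µg/L, and 0.93, 1.11 and 1.72 at 50 µg/L. No treated array overlapped the untreated ones at any dose. The differences were 0.78 ± 0.20, 0.76 ± 0.23 and 1.07 ± 0.19 (limma adjusted p = 0.0197, 0.0191 and 3.85e-05). At 24 h the differences lay between 0.17 and 0.41, and none passed the test.

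cox6a1 at 96 h measured -1.22, -0.74 and 0.16 in untreated livers, -0.32, -0.01 and 0.53 at 0.5 µg/L, 0.64, 0.37, 0.93 and 0.13 on the 4 arrays at 5 µg/L, and -0.07, 0.49 and 1.09 at 50 µg/L. Of the 7 arrays at 50 µg/L, 6 were above the highest untreated array. The differences were 0.68 ± 0.20, 1.17 ± 0.22 and 1.12 ± 0.19, with limma adjusted p of 0.0388, 0.00011 and 9.16e-06. It rose in 4 of the 6 dose comparisons.

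The other rises in complex IV at 50 µg/L and 96 h, named here after their values were seen, were of small single-span or peripheral subunits. cox7b measured -0.07, 0.27 and 0.53 in treated livers, against -2.17, -0.50 and 0.15 in untreated livers, and rose by 0.86 ± 0.23 (limma adjusted p = 0.00474). cox8a measured -1.27, -0.92 and -0.48, against -2.27, -1.69 and -0.90 in untreated livers, and rose by 0.70 ± 0.18 (limma adjusted p = 0.00394). Both overlapped the untreated range. cox7a2a rose by 0.51 ± 0.18 (limma adjusted p = 0.0373), and cox6b2, which had fallen at 5 µg/L and 24 h, rose by 0.41 ± 0.15 (limma adjusted p = 0.0448).

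The falls in complex IV were in the copies of COX5B. cox5b2 measured -0.90, -0.50 and 0.41 in 50 µg/L livers at 96 h, against -0.10, 0.26 and 0.59 in untreated livers. On 5 of 7 treated arrays it was below the lowest untreated array, and it differed by -0.64 ± 0.19 (limma adjusted p = 0.0151). cox5ba differed by -0.58 ± 0.18 on its brighter probe (limma adjusted p = 0.0152), a call that its dimmer probe turns round. At 5 µg/L and 96 h cox6a2, which in mammals is the heart and skeletal muscle form of the COX6A subunit, differed by -0.89 ± 0.27 (limma adjusted p = 0.0226). Its 4 arrays read -2.16, -1.76, -0.55 and -0.98, against -1.16, -0.49 and 0.07 (lowest, median, highest) in untreated livers, and overlapped them. None of the 15 muscle markers passed the test in that comparison, and the part of muscle content in the cox6a2 difference was not tested.

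**Figure D3:**
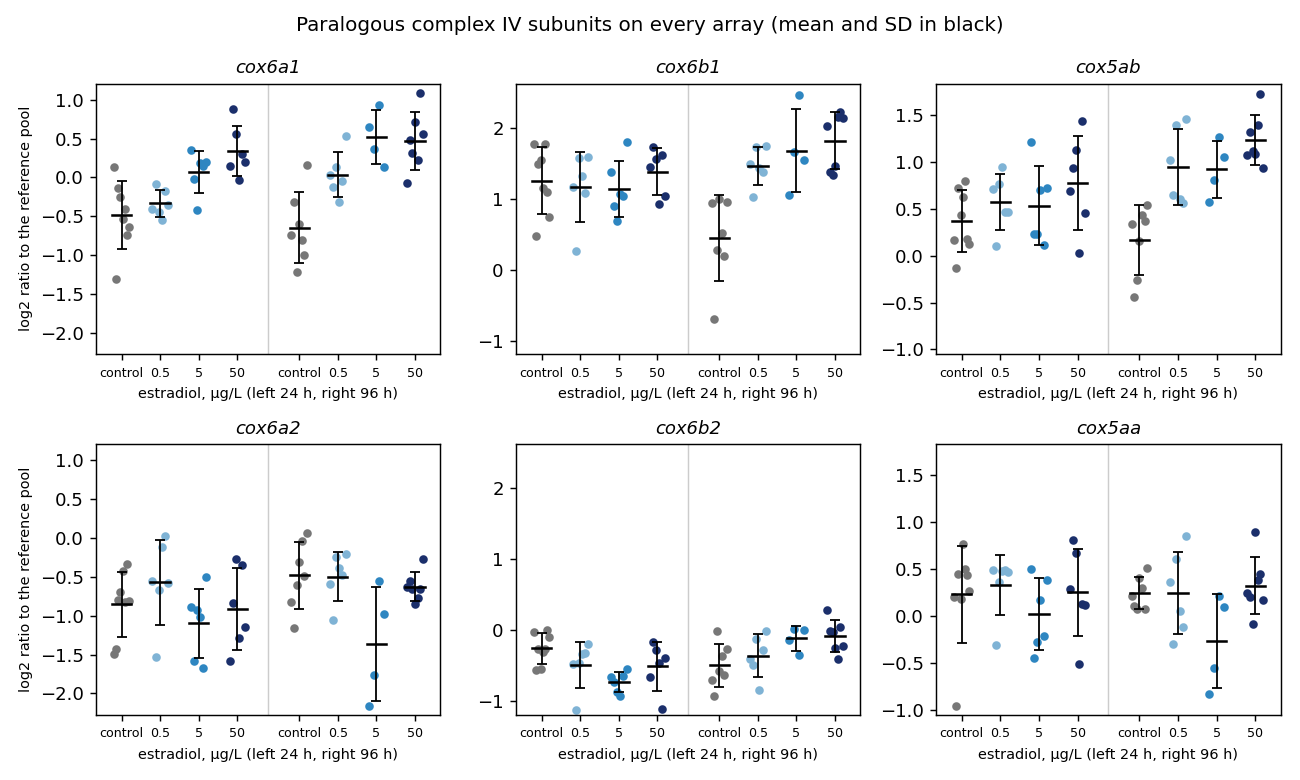
Log2 ratio to the reference pool (vertical axis) of 3 pairs of complex IV gene copies by estradiol dose in µg/L, with 24 h on the left and 96 h on the right of each panel; points are arrays, and black bars are the mean and SD. In the upper row cox6b1 and cox5ab at 96 h lie above every untreated array at each dose, while in the lower row cox5aa and cox6a2 of 50 µg/L at 96 h overlap the untreated arrays.

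For 2 of 13 pairs of gene copies the copies changed unequally at 50 µg/L and 96 h, when each pair was compared by the difference of its log2 ratios on each array. This shows unequal change and not which copy is more abundant, since levels of different probes cannot be compared. At 96 h cox5ab minus cox5aa averaged 0.90 ± 0.37 in treated livers and -0.08 ± 0.30 in untreated livers (SD, n = 7 each). The groups differed by 0.99 (two-sided exact permutation test, p = 0.00117, adjusted p = 0.0227 over 26 tests), and 6 of 7 treated arrays exceeded the highest untreated one. cox5aa itself differed by 0.08 ± 0.21 (limma adjusted p = 0.833).

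The other pair was the COX6A copies. At 96 h cox6a1 minus cox6a2 averaged 1.1 ± 0.41 in 50 µg/L livers and -0.17 ± 0.56 in untreated livers (SD, n = 7 each). The groups differed by 1.27 (two-sided exact permutation test, p = 0.00175, adjusted p = 0.0227), with 5 of 7 treated arrays above the highest untreated one. At 24 h the difference was 0.89 (exact permutation test, p = 0.0133, adjusted p = 0.0693). For cox6b1 minus cox6b2 the difference at 96 h was 0.95 (exact permutation test, p = 0.00699, adjusted p = 0.0606). Of the 13 pairs, 2 passed after adjustment at 96 h and 0 at 24 h, while 5 at 96 h and 1 at 24 h had an unadjusted p under 0.05. These tests were added after the values had been seen. Without the arrays of low signal the differences were 1.07 for the COX5A and 1.2 for the COX6A copies, with adjusted p of 0.0657 and 0.0821 (exact permutation tests). The unadjusted exact permutation p of the COX5A copies, 0.00253, was then the smallest that the remaining arrays can give. A single pair at that p cannot pass the adjustment over 26 tests, so this refit cannot decide whether the COX5A result holds.

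In complex I, the largest of the complexes, 15.2% of the genes rose at 50 µg/L and 96 h, near the 13.3% of all named genes. The rises were 1 of 7 core subunits, with a median of 0.17, and 4 of 26 accessory subunits, with a median of 0.19. ndufs4, an accessory subunit next to the NADH-oxidising module, measured -0.43, 0.26 and 0.47 in treated livers, against -1.14, -0.52 and -0.11 in untreated livers. On 6 of 7 treated arrays it exceeded the highest untreated array, and the difference was 0.77 ± 0.18 (limma adjusted p = 0.00094). It also rose at 0.5 µg/L, by 0.62 ± 0.18 (limma adjusted p = 0.0455), and at 5 µg/L, by 0.70 ± 0.21 (limma adjusted p = 0.0165).

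ndufa8, an accessory subunit on the intermembrane side, measured 0.01, 0.13 and 0.21 in 50 µg/L livers at 96 h, against -2.09, -0.38 and 0.03 in untreated livers, and rose by 0.72 ± 0.19 (limma adjusted p = 0.00462). ndufb6 measured 0.05, 0.23 and 0.35, against -1.95, -0.26 and 0.08 in untreated livers, and rose by 0.72 ± 0.19 (limma adjusted p = 0.00437). For both genes 6 of 7 treated arrays were above the highest untreated one, and the lowest untreated value came from replicate 2. Without that array the differences were 0.47 and 0.48, and both genes still passed the test. The other rises, named after their values were seen, were ndufa3, an accessory subunit, by 0.61 ± 0.19, and ndufs7, the core subunit that holds the last iron-sulfur cluster before ubiquinone, by 0.49 ± 0.16.

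In complex II sdhc, a membrane anchor of succinate dehydrogenase, measured 0.25, 0.57 and 1.48 in 50 µg/L livers at 96 h, against -0.85, -0.14 and 0.60 in untreated livers. On 3 of 7 treated arrays it exceeded the highest untreated array, and it rose by 0.69 ± 0.22 (limma adjusted p = 0.0253). Without the 2 arrays of low signal the difference was 0.54 (limma adjusted p = 0.102). In complex III, where 25% of the genes rose beside 13.3% of named genes, the 2 rises were among the 3 small subunits, whose median was 0.55. None of the 2 catalytic subunits or the 3 core proteins passed the test on the probe counted. The dimmer probe of uqcrc1, a core protein, fell at this dose and time, as given below. uqcrh measured -0.09, 0.67 and 1.05, against -0.08, 0.03 and 0.21 in untreated livers, and rose by 0.55 ± 0.18 (limma adjusted p = 0.0231). uqcrq, named in mammals as a ubiquinone-binding protein, measured 0.19, 0.59 and 0.87, against -1.89, -0.15 and 0.92 in untreated livers, and rose by 0.89 ± 0.25 (limma adjusted p = 0.00769). For uqcrq no treated array was above the highest untreated one, and with the untreated fish of both times as 1 group the difference was 0.57 (limma adjusted p = 0.069).

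In complex V, 3 of 8 peripheral stalk and membrane subunits rose at 50 µg/L and 96 h, with a median of 0.58, beside 13.3% of named genes. Of the 4 subunits of the F1 part, the head with its rotor stalk, 1 was called. That was atp5f1b, on its saturated probe and not on its other one. atp5pd, a subunit of the peripheral stalk that holds the head still, measured 0.46, 0.93 and 1.34 in treated livers, against -1.26, 0.16 and 0.93 in untreated livers, and rose by 0.92 ± 0.23 (limma adjusted p = 0.00312). atp5pf, the stalk protein known as coupling factor F6, measured 0.36, 0.83 and 1.12, against -0.34, -0.10 and 0.63 in untreated livers, and rose by 0.78 ± 0.20 (limma adjusted p = 0.00278). On 4 of 7 arrays for atp5pd and 5 of 7 for atp5pf the value was above the highest untreated array. atp5pf also rose at 5 µg/L, by 0.77 ± 0.23 (limma adjusted p = 0.0181), and atp5l, subunit g of the membrane part, rose at 50 µg/L by 0.57 ± 0.19 (limma adjusted p = 0.0279).

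The assembly factors and regulators moved in both directions at 96 h. ndufaf3, which in mammals acts early in complex I assembly, measured 1.02, 1.37 and 1.81 in 0.5 µg/L livers, against -0.21, 0.69 and 1.19 on the 6 untreated arrays with a value, and rose by 0.80 ± 0.21 (limma adjusted p = 0.0212). At 50 µg/L it rose by 0.64 ± 0.20 (limma adjusted p = 0.0197), a call lost without the arrays of low signal (0.50, limma adjusted p = 0.115). ndufaf1 rose at 5 µg/L by 0.63 ± 0.19 (limma adjusted p = 0.0223), with values of 0.17, 0.01, 0.12 and 0.28 against -1.43, -0.35 and -0.07 in untreated livers, and no overlap.

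cox7a2l, which in mammals joins complexes III and IV into supercomplexes, read -1.22, -0.25, -0.02 and -0.79 on the 4 arrays of 5 µg/L at 96 h, against -0.19, 0.54 and 1.17 in untreated livers. It differed by -1.04 ± 0.28 (limma adjusted p = 0.00869). ndufaf8, a complex I assembly factor in mammals, read -2.36, -1.29, -2.48 and -2.0, against -1.65, -0.98 and -0.59 in untreated livers, and differed by -0.96 ± 0.29 (limma adjusted p = 0.0197). For both genes the treated and untreated arrays overlapped. At 50 µg/L the differences were -0.55 for cox7a2l and -0.45 for ndufaf8, and neither passed the test.

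The counts at the lower doses of 96 h changed when single arrays were left out. Without untreated replicate 2 only cox6a1 remained of the 5 rises at 0.5 µg/L, with a difference of 0.74 (limma adjusted p = 0.0403), while cox6b1 was at 0.82 (limma adjusted p = 0.0522) and cox5ab at 0.68 (limma adjusted p = 0.0704). Over all 13 fits that left out 1 array, however, cox6a1 lost its call most often, in 8. The call was lost in 7 for ndufs4, 4 for cox5ab, 3 for ndufaf3 and 1 for cox6b1. The count at 0.5 µg/L was also 1 without treated replicate 3, 2 without untreated replicate 3 or treated replicate 6, 3 without untreated replicate 5 or 6 or treated replicate 1, and 8 without treated replicate 2. For 5 µg/L, with 9 rises and falls in all, it was 5 without treated replicate 1, 3 or 4. Over the 11 fits at 5 µg/L, cox6a1 and cox6b1 kept their calls in each, and the other called members lost theirs in 1 to 3. At 50 µg/L the count of rises and falls without untreated replicate 2 was 18, beside 22 with it, and cox5ba (-0.45, limma adjusted p = 0.0699) and ndufaf3 (0.48, limma adjusted p = 0.103) no longer passed.

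**Figure D4:**
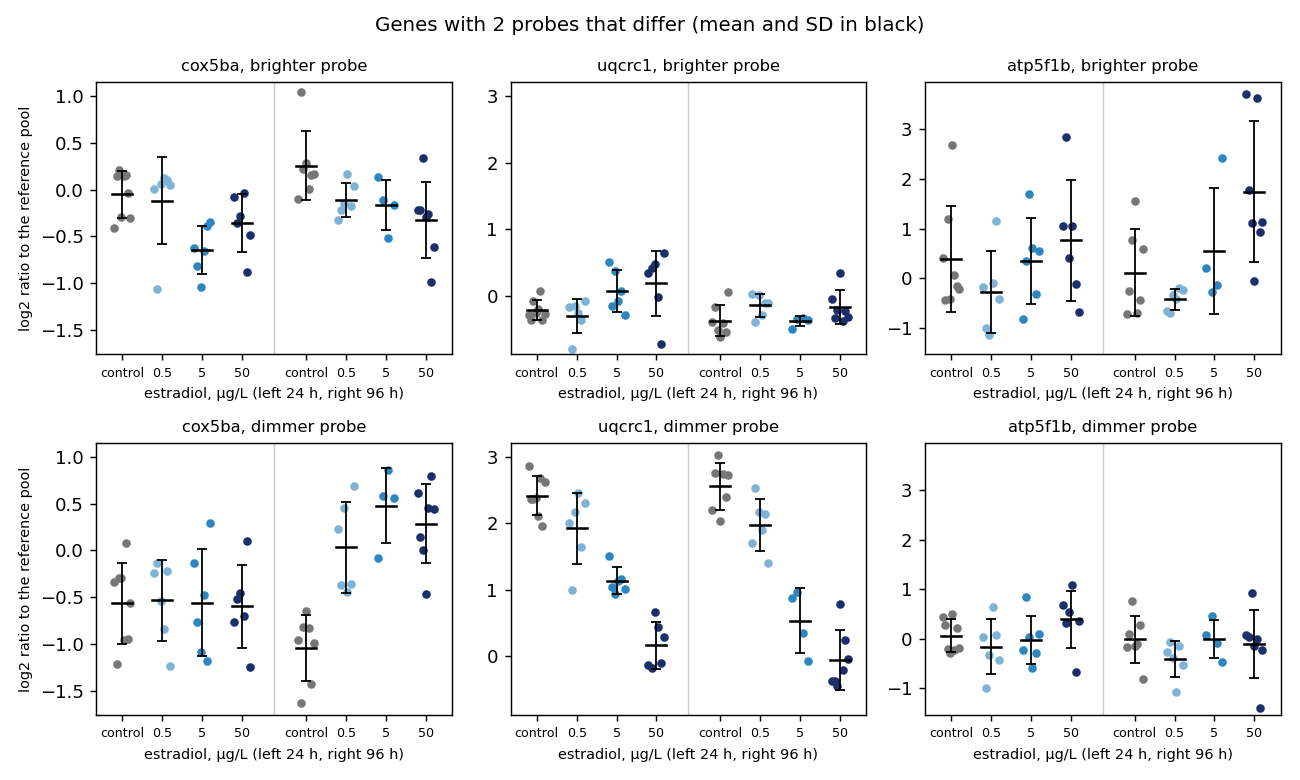
Log2 ratio to the reference pool (vertical axis) of the brighter and the dimmer probe of cox5ba, uqcrc1 and atp5f1b by estradiol dose in µg/L, with 24 h on the left and 96 h on the right of each panel; points are arrays, and black bars are the mean and SD. The dimmer uqcrc1 probe steps down with dose while the brighter one does not, the cox5ba probes part at 96 h, and the brighter atp5f1b probe was saturated on 33 of 35 treated arrays.

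For several genes with more than 1 probe the probes gave different answers, as the plot of probe pairs shows. The dimmer probe of cox5ba measured at 96 h -1.63, -0.96 and -0.65 in untreated livers, -0.45, -0.07 and 0.68 at 0.5 µg/L, -0.08, 0.58, 0.86 and 0.56 on the 4 arrays at 5 µg/L, and -0.46, 0.45 and 0.79 at 50 µg/L. No treated array overlapped the untreated ones. It rose by 1.08 ± 0.24, 1.52 ± 0.27 and 1.33 ± 0.23 (limma adjusted p = 0.00438, 4.29e-05 and 1.7e-05), and at 24 h its differences were 0.03, 0.0074 and -0.03. The brighter probe of cox5ba measured -0.99, -0.26 and 0.34 in 50 µg/L livers at 96 h, against -0.10, 0.17 and 1.04 in untreated livers, so the 2 probes named for this gene were called in opposite directions.

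uqcrc1 encodes a core protein of complex III, and its probes, singled out after their values were seen, differed more. The dimmer probe measured -0.45, -0.21 and 0.79 in 50 µg/L livers at 96 h, against 2.04, 2.72 and 3.03 in untreated livers. At 24 h it measured -0.17, 0.09 and 0.67 at 50 µg/L, against 1.96, 2.37 and 2.86 in untreated livers. None of the arrays at 50 µg/L overlapped the untreated ones at either time. The differences from the lowest to the highest dose were -0.49, -1.28 and -2.25 at 24 h and -0.58, -2.02 and -2.62 at 96 h, and those at 5 and 50 µg/L passed the test (limma adjusted p = 1.42e-05 and 2.52e-12 at 24 h, 6.32e-09 and 8.08e-15 at 96 h). The brighter probe, which stands for uqcrc1 in the counts above, differed by 0.41 ± 0.15 at 24 h and by 0.21 ± 0.15 at 96 h at 50 µg/L, and did not pass the test. Which probe reads uqcrc1 was not tested, since no probe sequence was used here.

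atp5f1b, the catalytic beta subunit of ATP synthase, passed the test at 50 µg/L and 96 h (limma adjusted p = 0.019) on a brighter probe that was saturated in Cy5 on 6 of those 7 arrays, and no size is given for it. Its array values overlapped those of untreated livers. The dimmer atp5f1b probe differed by -0.10 ± 0.26 (limma adjusted p = 0.840). One more gene, ndufb2, an accessory subunit of complex I, rose by 0.69 ± 0.21 on its dimmer probe at 50 µg/L and 24 h (limma adjusted p = 0.019) and differed by 0.11 on its brighter probe.

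Whether a dose acted differently at the 2 times was tested as the 96 h difference minus the 24 h difference. That value also takes in any change between the untreated groups. At 5 µg/L 2 members passed, 2.44% beside 1.7% of named genes: cox6b1 at 1.33 ± 0.36 (limma adjusted p = 0.0481) and cox6b2 at 0.85 ± 0.23 (limma adjusted p = 0.0457). For cox6b1 the untreated groups themselves differed by -0.80, 96 h minus 24 h, as given above, and this enters its 1.33. The median of untreated livers was also lower at 96 h than at 24 h for cox6b2. For cox6b2 the arrays of 5 µg/L at 96 h read -0.14, 0.02, -0.35 and 0.01, against -0.92, -0.57 and -0.01 in untreated livers, whereas at 24 h the treated arrays lay on the low side of the untreated ones. At 0.5 µg/L no member passed, beside 0.873% of named genes, and at 50 µg/L none passed, beside 0.338%. At an unadjusted limma p under 0.05 there were 7 and 5 members, where chance alone gives about 1 in 20. Between untreated fish, 96 h minus 24 h, no member passed, beside 1.45% of named genes (2 higher and 8 lower at an unadjusted p under 0.05), with a median of -0.09 over the members and -0.02 over named genes. Of 25 single arrays left out in turn, 11 gave a count of 0 members at 5 µg/L and 11 a count of 1. Between untreated fish 2 members passed without 96 h replicate 1, and 1 passed without 96 h replicate 4 or 24 h replicate 2.

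The highest dose was also set directly against the lowest on the 35 treated arrays, from scanner intensities and with no untreated array. At 24 h 5 members were higher at 50 than at 0.5 µg/L and none was lower, 6.1% of the 82 beside 12.2% of named genes in either direction. sdhc differed by 0.99 ± 0.24 (limma adjusted p = 0.0035) and atp5f1d, the delta subunit of the ATP synthase rotor stalk, by 0.79 ± 0.19 (limma adjusted p = 0.00429). cox7a2a differed by 0.68 ± 0.21 (limma adjusted p = 0.0293) and cox6a1 by 0.67 ± 0.18 (limma adjusted p = 0.0126). The fifth was ndufaf1, at 0.63 ± 0.18 (limma adjusted p = 0.0198). In the deposited ratios sdhc measured 0.11, 0.81 and 1.57 at 50 µg/L, against -0.77, -0.32 and 0.43 at 0.5 µg/L, and overlapped. atp5f1d measured 0.28, 0.58 and 0.74 at 50 µg/L, against -0.50, -0.21 and 0.22 at 0.5 µg/L, with no overlap. Against untreated fish, however, atp5f1d passed the test at no dose at either time. Without the arrays of low signal the differences of cox7a2a and atp5f1d were 0.55 and 0.72 and did not pass (limma adjusted p = 0.238 and 0.0652). The count was 3 without 50 µg/L replicate 2, and 10 members were higher and 1 lower at an unadjusted p under 0.05.

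At 96 h 3 members differed between these doses, 3.66% beside 6.56% of named genes. atp5f1d was higher at 50 µg/L by 0.87 ± 0.18 (limma adjusted p = 0.00223), with deposited ratios of 0.03, 0.32 and 0.97 at 50 µg/L and of -0.69, -0.31 and -0.06 at 0.5 µg/L, which did not overlap. Neither dose differed from untreated fish in the test for this gene. cox5b2, a COX5B copy, was lower, at -0.77 ± 0.23 (limma adjusted p = 0.0476). The call for atp5f1b rests on its saturated probe, and no size is given for it. Of cox6b1, cox5ab, cox6a1, ndufs4 and ndufaf3, which rose at 96 h against untreated fish at both doses, none passed the test between 50 and 0.5 µg/L. The count was 1 without 50 µg/L replicate 1 or without replicate 5.

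Other nuclear genes of the mitochondrion were counted in lists that had been chosen with earlier results of these data known, and are set beside the shares of all named genes that rose at 50 µg/L, 9.56% at 24 h and 13.3% at 96 h. Of 47 mitochondrial ribosomal proteins, 14 rose (29.8%) and 0 fell at 50 µg/L at 24 h (median 0.38), and 11 rose (23.4%) and 1 fell at 96 h (median 0.24). mrpl34 rose by 0.92 ± 0.16 and mrpl27 by 0.67 ± 0.13 at 96 h (limma adjusted p = 1.44e-05 and 0.000116). Of 19 genes of mitochondrial protein import, 7 rose at 24 h (36.8%, median 0.44) and 2 at 96 h (10.5%, median 0.12), and the 2 were tomm20, a receptor of the outer membrane, by 0.90 ± 0.18, and timm17a, a channel subunit of the inner membrane, by 0.69 ± 0.17.

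Of 16 assembly factors whose symbols the rule did not take, 6 rose at 24 h (37.5%, median 0.34) and 3 at 96 h (18.8%, median 0.21), and none fell. nubpl, which in mammals delivers iron-sulfur clusters to complex I, rose by 3.60 ± 0.27 at 50 µg/L and 96 h (limma adjusted p = 2.04e-15), and cox17, the copper chaperone of complex IV, by 1.48 ± 0.19 (limma adjusted p = 4.5e-08). Of 16 genes of biogenesis, mitochondrial gene expression and protein quality control, 4 rose and 1 fell at 24 h and 3 rose (18.8%) and 1 fell at 96 h. phb, a prohibitin of the inner membrane, rose by 1.58 ± 0.16 and hspd1, the mitochondrial chaperonin, by 1.28 ± 0.20 at 96 h.

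The tricarboxylic acid cycle, which feeds NADH and succinate to complexes I and II, had shares near those of all named genes: 2 of 19 genes rose at 24 h (10.5%, median 0.09), and 2 rose (10.5%) and 1 fell at 96 h (median 0.09). idh3b, a subunit of isocitrate dehydrogenase, rose by 1.19 ± 0.18 (limma adjusted p = 1.6e-06), and suclg2, the GTP-forming subunit of succinyl-CoA ligase, differed by -1.50 ± 0.28 (limma adjusted p = 6.7e-05). Of 18 genes for electron carriers, ATP export and uncoupling, 1 rose (5.6%) and 2 fell at 24 h (median -0.12), and 3 rose (16.7%) and 2 fell at 96 h (median 0.21). ckmt1, mitochondrial creatine kinase, rose by 1.41 ± 0.22 (limma adjusted p = 2.72e-06), and ucp1, the uncoupling protein that lets protons bypass ATP synthase in mammalian brown fat, differed by -2.10 ± 0.32 (limma adjusted p = 1.78e-06).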

How the data were processed

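Liver RNA of 50 male zebrafish samples was compared with a common reference pool on 2-colour arrays of 23232 probes. The authors deposited log2 ratios (Cy5 over Cy3) in a value table, already normalized by a method not given in the sources used here, and, for the 35 treated arrays, scanner intensity columns with local background, per the file headers. The deposited percent column, per the file headers, gives the share of a spot's pixels above background. On those arrays the log2 column equals the deposited value table.

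After centring every array on its median, the 22046 probes measured on 3 or more arrays in every group were fitted with limma 3.58.1 in R 4.3.3, with 8 group means and Benjamini-Hochberg adjustment over all tested probes. The 50 against 0.5 µg/L comparison used normexp correction (offset 50) and loess on 35 arrays. Genes with several probes were counted by the probe with the highest mean Cy3 signal. Above background meant over 50% of spot pixels, and the saturation limit was 65000. Missing values, 2.28% of the tested ones, were dropped and never imputed. The fit was tested on simulated data. A simulated log2 change of 0.5 was recovered in 19.4% of changed probes for 50 µg/L at 24 h and 14.9% at 96 h. For 5 µg/L at 96 h it was 8.96%. For a change of 1 the shares were 71.6%, 79.1% and 53.7%, in the same order. Small changes would therefore mostly be missed. Names were brought up to date with RefSeq's gene table, used for names only.

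Named genes were cox6a1, up to 3 rises and 3 falls per complex in each dose comparison, up to 4 called members in other comparisons, members with opposite probe calls, and up to 2 genes per pathway list; others are said to have been chosen after their values were seen. Members and lists were chosen with earlier results of these data known. Alternatives varied centring, scaling, filters, probes, arrays, weights and the replicate number as a block. Most same-numbered samples did not deviate together: at most 1 pair per comparison correlated over 0.1. The highest correlation of such a pair was 0.44, for 0.5 µg/L at 96 h. Labels differ for 2 groups: descriptions at 5 µg/L and 96 h count more replicates than the 4 held, and most descriptions at 50 µg/L and 96 h give a time slightly longer than the titles, which were followed. No slide or scan batch is given, so none could be tested. Signal of untreated arrays was not analysed here, and the number of arrays limits the precision.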

Additional observations from a re-analysis of the deposited data

Results flagged for a closer look

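In groups of 4 to 10 arrays, the highest or lowest array was checked for a gap to its neighbours, and 7 of 80 checks stood out, where chance gives about 1 in 20. The median over the 82 genes was 0.12 on untreated replicate 7 of 96 h, above the other untreated arrays of that time, and -0.44 on replicate 2 of 0.5 µg/L at 24 h, below the others of its group. Untreated replicate 2 of 96 h stood apart for 4 genes. It had ndufaf1 at -1.43, with the other untreated arrays between -0.63 and -0.07, and ndufa8 at -2.09, with the others between -0.77 and 0.03. It also had ndufb6 at -1.95, with the others between -0.63 and 0.08, and the brighter cox5ba probe at 1.04, with the others between -0.10 and 0.29. Replicate 3 of 50 µg/L at 96 h, an array of low signal, had ndufs4 at -0.43, with the others of its group between 0.15 and 0.47.

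The 96 h and 24 h differences at 5 µg/L were unequal in the test of that difference for cox6b1 (1.33 ± 0.36, limma adjusted p = 0.0481), cox6b2 (0.85 ± 0.23, limma adjusted p = 0.0457) and the dimmer cox5ba probe (1.52 ± 0.36, limma adjusted p = 0.0164). These values also take in any change between the untreated groups, which for cox6b1 were lower at 96 h.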

How the results depend on the processing

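Over 139 recounts under other settings, 124 stayed within 1.5 times the reported count of members. The other 15 were these, the cause was not tested, and the share of named genes under these settings is not given here. Array weights gave, at 24 h, 7 members for 5 µg/L and 22 for 50 µg/L, at 96 h 21 for 0.5 µg/L, and 1 time difference at 50 µg/L. Untreated fish of both times pooled gave, at 24 h, 6 for 5 µg/L and 25 for 50 µg/L. Arrays scaled to one deviation gave 3 at 0.5 µg/L at 96 h and 0 time differences at 5 µg/L. The arrays of the contrast alone gave 1 of each, quantile normalization 1 time difference at 5 µg/L, and the probe above background on most arrays 1 at 5 µg/L and 24 h. With the replicate number as a block, 1 member was called at 5 µg/L and 24 h, 1 for the time difference at 5 µg/L and 1 between untreated groups, and no other count moved by over 1.5 times; the pairs' correlations ran from -0.29 to 0.44. The sign changed in these cases: cox5ba at 50 µg/L and 96 h was 0.38 as the mean of its probes and 1.33 on its other probe, and at 5 µg/L and 24 h it was 0.0074 on that probe.

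Leaving out single arrays gave 0 to 0 members at 0.5 µg/L and 24 h, 0 to 2 for 5 µg/L and 4 to 11 for 50 µg/L. For 96 h it gave 1 to 8 at 0.5 µg/L, 5 to 10 for 5 µg/L and 18 to 27 for 50 µg/L. Time differences ranged 0 to 0, 0 to 2 and 0 to 0 by dose, the untreated groups 0 to 2, and 50 against 0.5 µg/L 3 to 7 at 24 h and 1 to 3 at 96 h. At 0.5 µg/L and 96 h the count was 1 without untreated replicate 2 or treated replicate 3, and 8 without treated replicate 2. At 5 µg/L and 96 h it was 5 without treated replicate 1, 3 or 4. For named genes, 562 of 615 refits under other settings kept direction and side of the threshold, 46 lost the call and 4 gained it. With single arrays left out, 540 of 693 refits kept it, 150 lost it and 3 gained it. The call was lost in 10 of 13 such fits for cox5b2 at 50 against 0.5 µg/L and 96 h, in 9 of 14 for atp5mc1 at 50 µg/L and 24 h, and in 8 of 13 for cox6a1 at 0.5 µg/L and 96 h. Without the arrays of low signal, 8 of 51 named results lost the call, among them sdhc and ndufaf3 at 50 µg/L and 96 h. Without single arrays, the copy differences ranged 0.91 to 1.11 for COX5A and 1.16 to 1.44 for COX6A, with an adjusted p of at most 0.0455. Few and dim arrays limit what can be detected.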
